A study of Mus musculus with 12 samples.

Results

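Car2 and Kcnab2 are 2 mouse genes of the 22520 whose ribosome footprints were counted in a B cell lymphoma line carrying altered forms of the ribosomal protein RPL12. They were chosen by Ensembl ID because earlier results on these same libraries showed both to be low in S38A only, out of S38D, S38A and WT cells. The difference of S38A from the other 2 genotypes is therefore what chose them, and it is described here without a test. The change between mitotic and asynchronous cells played no part in the choice and was tested.

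Car2 encodes carbonic anhydrase 2, a cytosolic zinc enzyme that interconverts carbon dioxide and bicarbonate and so takes part in the control of pH and in bicarbonate transport. It is best known from red blood cells, osteoclasts and kidney tubule cells. Kcnab2 encodes Kv beta 2, a cytoplasmic auxiliary subunit of Shaker-type voltage-gated potassium channels with the fold of an aldo-keto reductase, which binds NADPH and affects the gating and surface delivery of the channel's pore-forming subunits. Shaker-type channels help to set the membrane potential in lymphocytes.

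Ribosome profiling sequences the mRNA fragments that ribosomes protect from nuclease. In RPL12 (uL11), a protein at the base of the stalk of the large ribosomal subunit, S38D replaces serine 38 by aspartate and S38A replaces it by alanine, while WT cells carry the serine. Each genotype was sampled as mitotic cells, given the microtubule poison nocodazole at 100 ng/mL for 8 hr and then fresh medium for 10 min, and as asynchronous cells, which gives 6 groups of 2 libraries. Cells of all 6 groups were harvested in cycloheximide, an inhibitor of translation elongation, at 100 µg/ml. All groups share the parent line, 19PP, which arose in a Rag2-/-γC-/- mouse given bone marrow of Cγ1-Cre; Myc/P110*flSTOP genotype, and per the growth protocol a subline that had lost its GFP and hCD2 reporters was cultured. The labels give neither the number of clones behind a genotype nor the origin of the paired libraries (separate cultures or a single one), so the p-values below reflect library-to-library spread that may be technical only. Mitotic state and nocodazole treatment cannot be told apart.

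The 12 libraries held 258354 to 505500 reads in coding sequence. The range was 274071 to 505500 in S38D, 323093 to 440741 in S38A and 258354 to 393141 in WT libraries. The sources used here named no gene ID other than the chosen pair, so RPL12 itself, B cell markers, markers of other cells, other carbonic anhydrases and the channel subunits that Kcnab2 binds were not analysed here. Footprints depend both on how much of an mRNA is present and on how much it is translated, and in a bulk library fewer cells with the mRNA and less of it per cell cannot be told apart. Levels are given as reads and as CPM, reads scaled to a total of 1000000 over the tested genes after TMM adjustment. Car2 and Kcnab2 were not set against each other by level, since a longer coding sequence collects more footprints.

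Car2 (ENSMUSG00000027562.12) lies at chr3:14886269-14900770 and Kcnab2 (ENSMUSG00000028931.11) on the minus strand at chr4:152390744-152477549, both in RefSeq coordinates of GRCm38.p6, the build also called mm10. The 250 bases before the outermost Kcnab2 start, chr4:152477550-152477799 on the minus strand, are shown from RefSeq (GRCm38.p6). The promoter windows used here included none for Car2, so only Kcnab2 is shown. Capitals mark matches to the octamer ATTTGCAT, a motif known from promoters active in B cells, and to the CCAAT box, both searched on both strands (reverse complements ATGCAAAT and ATTGG). The motifs were picked after the sequence was read.
Kcnab2 promoter: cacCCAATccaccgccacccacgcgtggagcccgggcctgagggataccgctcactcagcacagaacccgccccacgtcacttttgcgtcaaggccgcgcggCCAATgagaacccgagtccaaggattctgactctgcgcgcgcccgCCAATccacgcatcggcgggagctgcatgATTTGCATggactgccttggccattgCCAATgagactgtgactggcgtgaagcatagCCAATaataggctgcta

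This window held 1 octamer, beginning 74 bases before the start, and 5 CCAAT boxes, all on the strand of the gene. Among 32851 RefSeq promoter windows of the same length, 1.6% held at least 1 octamer and 33.8% at least 1 CCAAT box. The share of windows with 5 CCAAT boxes was not counted. TATAAA, found in 12.4% of windows on either strand, had 0 matches here. The windows before the other 2 annotated Kcnab2 starts held 0 octamers and 0 CCAAT boxes. The counts do not tell which start was in use in these cells, and a match is a description of the letters only.

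Both genes were nearly without footprints in S38A cells. Over the 4 libraries of each genotype, Car2 had 210 reads in S38D, 10 in S38A and 139 in WT cells, out of 1543353, 1547645 and 1254508 coding reads. Kcnab2 had 85 reads in S38D, 4 in S38A and 73 in WT cells. Both genes were thus still seen in S38A cells, at 0 to 4 reads in each library.

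In mitotic cells, Car2 had 64 and 53 reads (244.2 and 185.9 CPM) in the S38D libraries, 4 and 3 reads (9.34 and 7.95 CPM) in the S38A libraries and 36 and 60 reads (120.7 and 155.5 CPM) in the WT libraries. In asynchronous cells it had 48 and 45 reads (98.5 and 99.7 CPM) in S38D, 2 and 1 reads (5.22 and 3.23 CPM) in S38A and 25 and 18 reads (97.7 and 59.7 CPM) in WT. The 4 S38A libraries lay below the 8 others, with 3.23 to 9.34 CPM against at least 59.7 CPM.

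From the reads alone, the ratio of S38D to S38A for Car2 was 24.2 in mitotic cells, with a 95% counting interval of 11.4 to 61.4, and 23.0 in asynchronous cells, with an interval of 7.63 to 113.6. The ratio of S38A to WT was 0.0611 (0.0239 to 0.131) in mitotic and 0.0543 (0.0108 to 0.170) in asynchronous cells. These exact binomial intervals cover counting error only, not the spread between cultures.

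Kcnab2 had 15 and 14 reads (57.2 and 49.1 CPM) in mitotic S38D libraries, 1 and 0 reads (2.33 and 0 CPM) in mitotic S38A libraries and 20 and 18 reads (67.1 and 46.6 CPM) in mitotic WT libraries. A count of 0 in that S38A library allows up to 7.95 CPM, the worth of 3 reads, and the exact Poisson 95% interval drawn in the plot by library, which is two-sided, ends at 9.77 CPM. In asynchronous cells the values were 29 and 27 reads (59.5 and 59.8 CPM) in S38D, 1 and 2 reads (2.61 and 6.47 CPM) in S38A and 19 and 16 reads (74.3 and 53.1 CPM) in WT. Here too the 4 S38A libraries, at 0 to 6.47 CPM, lay below the 8 others, at 46.6 CPM or more.

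For Kcnab2 the ratio of S38D to S38A was 41.9 in mitotic cells, where S38A had 1 read in all, and its 95% counting interval ran from 6.95 to 1712. In asynchronous cells it was 13.9 (4.50 to 69.2). The ratio of S38A to WT was 0.0221 (0.000544 to 0.131) in mitotic and 0.0668 (0.0131 to 0.212) in asynchronous cells. With 1 to 3 S38A reads behind each ratio, these values describe the libraries and do not order the states.

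**Figure D1:**
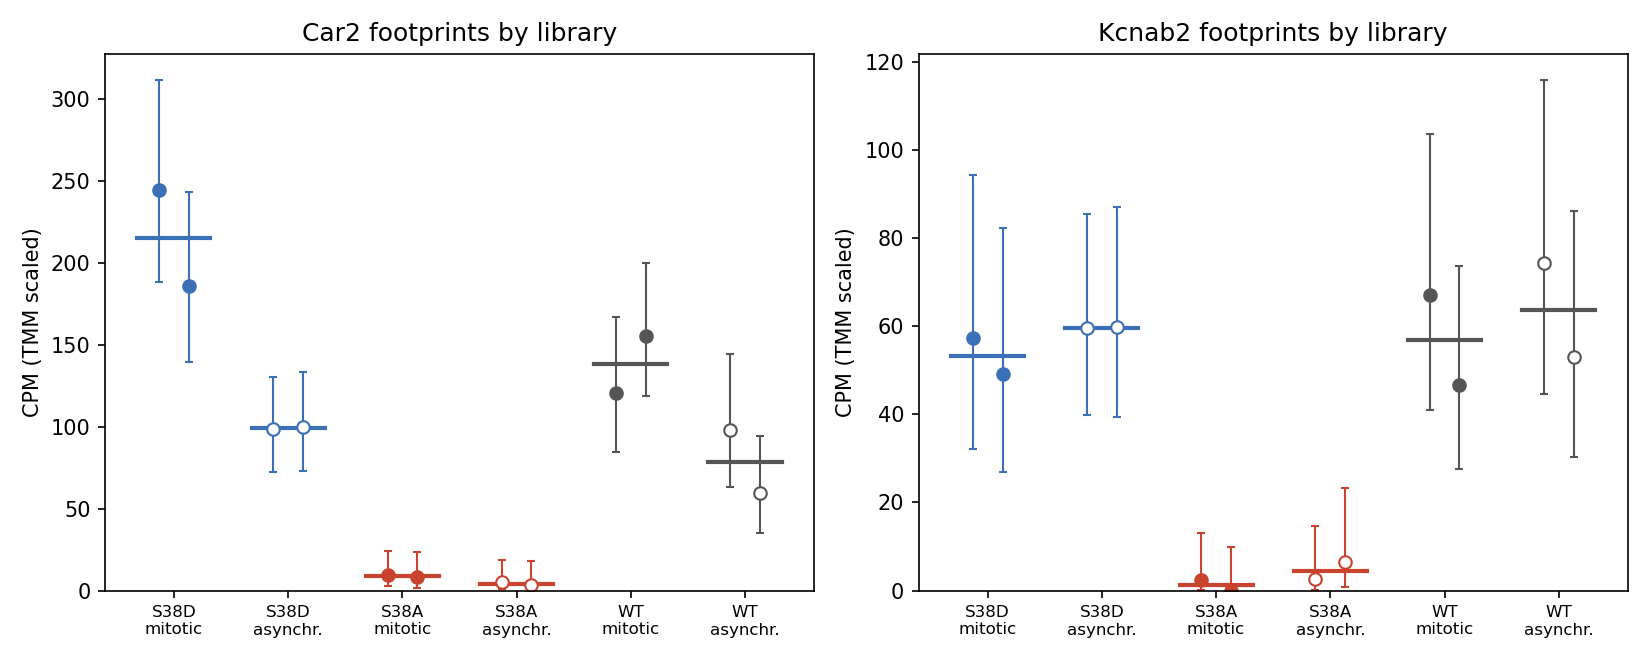
Footprint level of Car2 (left) and Kcnab2 (right) in CPM for each of the 12 libraries, by genotype and state, with filled points for mitotic and open points for asynchronous cells. Vertical bars are exact Poisson 95% intervals of the read count, horizontal lines are group means, and all S38A points lie at 9.34 CPM or below while all other points lie at 46.6 CPM or above.

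The order of the groups differed between the genes above the S38A level. Car2 was highest in mitotic S38D cells at 215.1 ± 41.2 CPM, then came mitotic WT at 138.1 ± 24.6, asynchronous S38D at 99.1 ± 0.845, asynchronous WT at 78.7 ± 26.9, mitotic S38A at 8.64 ± 0.985 and asynchronous S38A at 4.23 ± 1.40 CPM (SD, n = 2 each). No neighbours in this order had overlapping libraries, but the counting intervals of their libraries overlapped everywhere except between asynchronous WT and mitotic S38A. Such separation of 2 libraries from 2 was common where it was counted: 28.9% of genes tested had mitotic S38A libraries above asynchronous S38A ones. For the other neighbours the share of genes was not counted, so the order describes these libraries only. Kcnab2 ran from 63.7 ± 15.0 CPM in asynchronous WT through 59.7 ± 0.217 in asynchronous S38D, 56.9 ± 14.4 in mitotic WT and 53.2 ± 5.74 in mitotic S38D to 4.54 ± 2.73 in asynchronous S38A and 1.17 ± 1.65 CPM in mitotic S38A (SD, n = 2 each). Among its first 4 groups each overlapped the next, while mitotic S38D and asynchronous S38A were far apart. The S38A groups did not overlap each other, but the counting intervals of their libraries did. The share of genes with asynchronous S38A libraries above mitotic ones was not counted.

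S38D and WT cells were close for Kcnab2. The fitted log2 difference of S38D from WT was -0.07 in mitotic cells (95% interval -0.82 to 0.68) and -0.08 in asynchronous cells (-0.74 to 0.59). For Car2 it was 0.61 (0.17 to 1.06) in mitotic and 0.36 (-0.21 to 0.92) in asynchronous cells. The asynchronous value was 0.01 without WT asynchronous replicate 2 and 0.71 without WT asynchronous replicate 1, so it hung on which WT library was used. The mitotic value was 0.42 (SE 0.28) without S38D mitotic replicate 1 and 0.50 (SE 0.26) without WT mitotic replicate 1. It was 0.85 (SE 0.27) without S38D mitotic replicate 2 and 0.88 (SE 0.30) without WT mitotic replicate 2. DESeq2 gave 0.68 (SE 0.37), against 0.61 (SE 0.22) from the main fit of all libraries, so the mitotic value too hung on the libraries and the method. These differences belong to the pattern that chose the genes and carry no test.

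Set beside the whole table, a deficit of this kind was rare. Of the 6692 genes tested, 88 (1.32%) had all 4 S38A libraries below the 8 others, and 4 (0.0598%) had that and a mean at least 4-fold lower on the log2 CPM scale. Car2 and Kcnab2 were the 2 genes with the largest mean difference among them, at -3.43 and -2.95, and since they were chosen for it this is their description. In the same sense, 0 genes had all 4 S38D libraries 4-fold below the others and 0 had all 4 WT libraries so, while 25 and 55 genes had such libraries below the others at any size. In the other direction, 1 gene had its S38D libraries, 4 their S38A libraries and 5 their WT libraries 4-fold above all others. Separation of 1 genotype was thus not seen in S38A alone. At any size, 30 genes had their S38D libraries above the others, 157 their S38A libraries and 85 their WT libraries. S38A thus had the most separated genes in both directions at any size. Both genes passed the filter on low counts through their S38D and WT libraries.

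The other 2 genes with this 4-fold separation are known here by ID only. ENSMUSG00000030790.15 had 315.7 ± 14.8 CPM in mitotic S38D, 41.0 ± 1.90 in mitotic S38A and 257.8 ± 42.1 in mitotic WT cells. In asynchronous cells it had 192.1 ± 13.4, 21.8 ± 1.26 and 222.8 ± 5.52 CPM in the same genotypes (SD, n = 2 each). ENSMUSG00000075602.10 had 67.5 ± 3.74, 8.80 ± 2.54 and 168.9 ± 39.7 CPM in mitotic S38D, S38A and WT cells and 47.8 ± 4.94, 9.44 ± 8.78 and 152.4 ± 27.8 CPM in asynchronous ones (SD, n = 2 each). ENSMUSG00000075602.10 thus had lower values in S38D than in WT libraries as well, a difference not tested here.

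**Figure D2:**
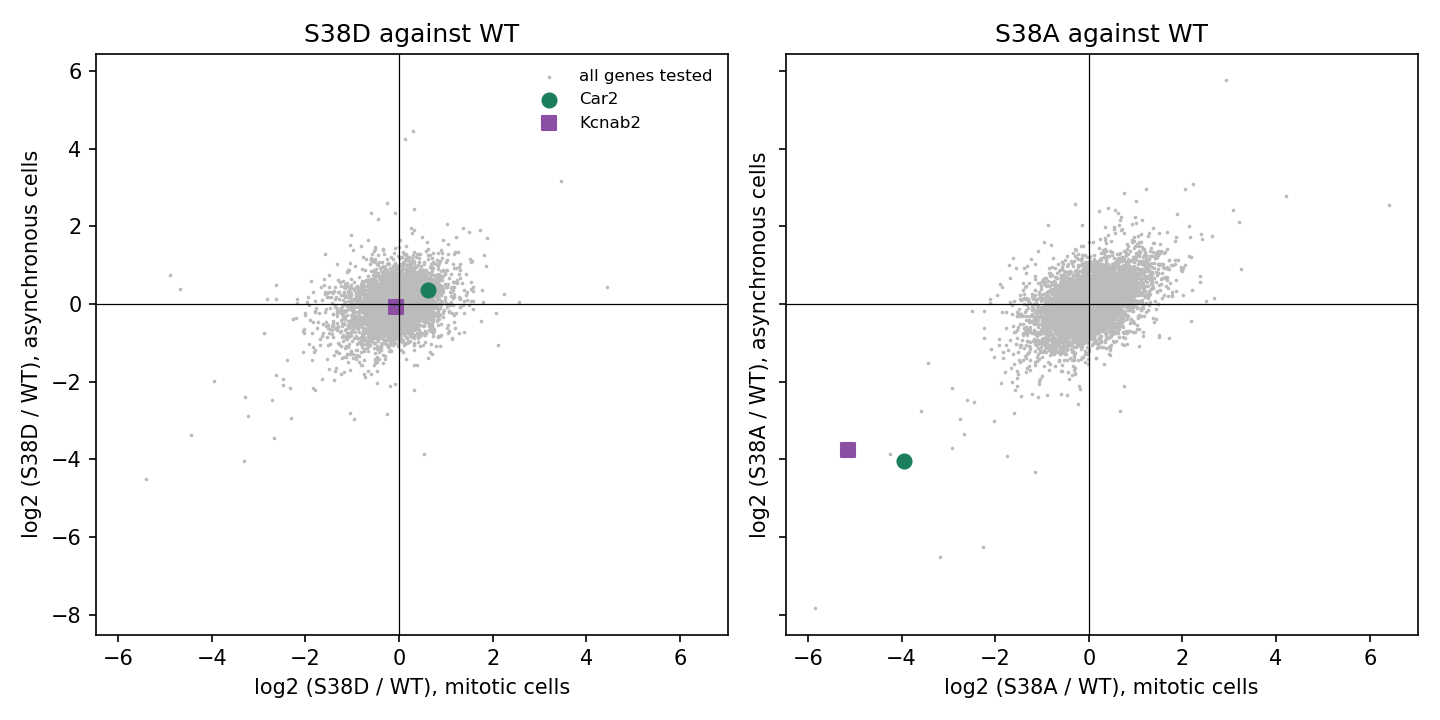
Log2 difference from WT in mitotic (x) and asynchronous cells (y) for all 6692 genes tested (grey), for S38D (left) and S38A (right), with Car2 and Kcnab2 marked. Both genes lie within the cloud for S38D and outside it for S38A, with Car2 at -3.95 in mitotic and -4.05 in asynchronous cells and Kcnab2 at -5.14 and -3.75. Both panels use the same WT libraries.

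The share of listed alignments that hit more than 1 place differed by genotype and by state. Over both states it was 65.3 to 72.5% in S38D, 62.3 to 70.4% in S38A and 66.3 to 73.0% in WT libraries. In mitotic cells it was 70.4 and 65.8% in S38A libraries, against 72.4 to 73.0% in S38D and WT ones. In asynchronous cells it was 62.3 and 62.8% in S38A, against 65.3 to 68.3% in S38D and WT. Within each state the S38A libraries thus lay below all S38D and WT libraries in this share, as they did for both genes. The part of this share in the result was not tested. Reads that Car2 or Kcnab2 share with near-identical copies elsewhere would be missing from these counts.

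Each gene was then compared between states. In mitotic cells Car2 rose to 1.97-fold of its asynchronous level on average over S38D and WT cells, while the change of Kcnab2 was not distinguishable from 0. For Car2 the averaged log2 change was 0.98 ± 0.18 (SE, 95% interval 0.62 to 1.34, adjusted p = 6.85e-06, edgeR quasi-likelihood test with Benjamini-Hochberg adjustment over all genes). Its 4 mitotic S38D and WT libraries, at 120.7 to 244.2 CPM, all lay above the 4 asynchronous ones, at 59.7 to 99.7 CPM. This was common among genes: 16.1% of the genes tested were called higher in this comparison, 32.8% were called in either direction and 12.7% had 4 mitotic libraries above 4 asynchronous ones. By size, 323 of the 6692 genes had a larger log2 rise than Car2.

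Within S38D cells the log2 change of Car2 was 1.11 ± 0.22 (SE, adjusted p = 0.000105, edgeR), where 10.6% of genes were called higher and 21.4% in either direction. Within WT cells it was 0.85 ± 0.28 (SE, adjusted p = 0.0207, edgeR), where 9.13% were called higher and 18.4% in either direction. The WT call was lost in 2 of the 12 fits that left out 1 library: without WT asynchronous replicate 2 the log2 change was 0.52 (adjusted p = 0.364, edgeR), and without WT mitotic replicate 2 it was 0.61 (adjusted p = 0.292, edgeR). DESeq2 gave 0.80 for WT cells with an adjusted p of 0.181. The S38D call held in all 12 such fits.

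In S38A cells Car2 had 7 reads in mitotic and 3 in asynchronous libraries, a fitted log2 change of 0.95 with a 95% interval of -1.01 to 2.91 (adjusted p = 0.509, edgeR). The 2 mitotic libraries, at 9.34 and 7.95 CPM, lay above the 2 asynchronous ones, at 5.22 and 3.23 CPM, as they did for 28.9% of genes. The test did not pass, and a change of the size seen in S38D and WT cells lies within this interval. In S38A cells 18.6% of all genes were called in either direction.

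The Car2 change was not shown to differ between genotypes. The change in S38D minus that in WT was 0.26 (95% interval -0.46 to 0.98, adjusted p = 0.961, edgeR), in a comparison that called 0.0598% of genes. The change in S38A minus that in WT was 0.10 (-1.94 to 2.14, adjusted p = 0.989, edgeR), where 0.448% were called. The intervals leave room for sizeable differences, above all for S38A.

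Kcnab2 had 46.6 to 67.1 CPM in the 4 mitotic and 53.1 to 74.3 CPM in the 4 asynchronous libraries of S38D and WT cells, and these ranges overlap. Its averaged log2 change was -0.17 ± 0.25 (SE, 95% interval -0.67 to 0.33, adjusted p = 0.64, edgeR). It was -0.17 in S38D (adjusted p = 0.78, edgeR) and -0.17 in WT cells (adjusted p = 0.8, edgeR). In S38A cells, with 1 mitotic and 3 asynchronous reads, the value of -1.56 had an interval of -4.85 to 1.74 (adjusted p = 0.448, edgeR). The change in S38D minus that in WT was 0.0052 (-0.997 to 1.01, adjusted p = 0.999, edgeR) and that in S38A minus WT -1.38 (-4.75 to 1.99, adjusted p = 0.809, edgeR).

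**Figure D3:**
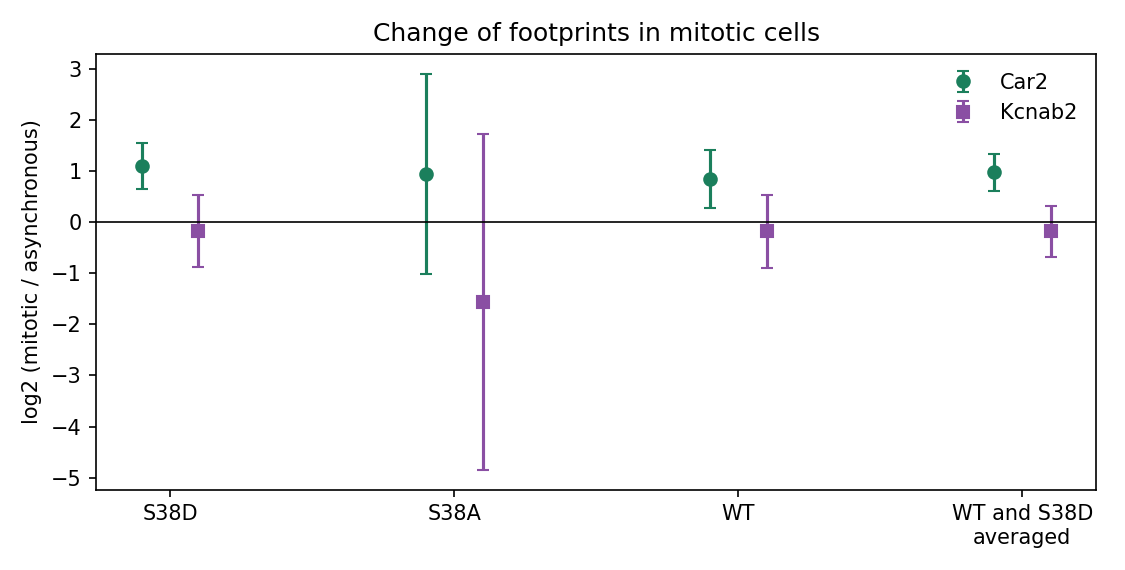
Log2 change in mitotic relative to asynchronous cells for Car2 (circles) and Kcnab2 (squares) in S38D, S38A and WT cells and averaged over WT and S38D, with 95% intervals from the edgeR fit. Car2 lies above 0 in S38D (1.11), WT (0.85) and their average (0.98), Kcnab2 lies near -0.17 in the same places, and both S38A intervals span 0 widely.

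The genes were also compared with each other across states. The log2 CPM of Car2 minus that of Kcnab2, a difference whose level depends on coding length but whose change does not, was 1.99 and 1.81 in mitotic S38D libraries, against 0.68 and 0.69 in asynchronous ones. It was 0.80 and 1.62 in mitotic WT libraries, against 0.37 and 0.15 in asynchronous ones. Mitotic libraries were higher within both genotypes, by 1.08 on average. An exact permutation test, two-sided and with state permuted inside each genotype, gave p = 0.0556, the smallest that the 36 assignments allow, and 0.0834 adjusted over 3 such tests, so this design could not pass 0.05. The same test gave p = 0.0556 for Car2 alone (log2 difference 0.93, adjusted 0.0834) and an exact p = 0.389 for Kcnab2 alone (-0.15).

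Other measures of the libraries moved with state in the same cells. In S38D and WT, alignments to more than 1 place were 72.4 to 73.0% in mitotic and 65.3 to 68.3% in asynchronous libraries, and among uniquely aligned reads those outside counted features took 27.9 to 34.6% in mitotic and 18.0 to 23.0% in asynchronous ones. Their part in the Car2 change was not tested.

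The gene most like Car2 over the 12 libraries, by Pearson's r of log2 CPM among 6690 other genes, was ENSMUSG00000030790.15 at 0.98. The 5 genes most like Kcnab2 had r of 0.91 to 0.93 and included that same ID, in the third place, at 0.93. The 12 libraries fall into S38A and the rest for both genes, and each of these most alike genes also had its lowest means in the S38A groups, so r spans separate clusters of libraries. Within the 8 S38D and WT libraries, which differ in state, ENSMUSG00000030790.15 had r = 0.80 with Car2 and -0.53 with Kcnab2, and Car2 and Kcnab2 had -0.29 with each other. Averaged over S38D and WT, ENSMUSG00000030790.15 was, like Car2, called higher in mitotic cells (log2 change 0.47, adjusted p = 0.00398, edgeR). The same held for 16.1% of all genes tested. Its mean went from 192.1 CPM in asynchronous to 315.7 CPM in mitotic S38D cells, but only from 222.8 to 257.8 CPM in WT cells. It was named for its likeness to Car2 over these same libraries, both states included, so the shared direction is no separate result.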

How the data were processed

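For each library the authors deposited raw read counts over 22520 Ensembl gene IDs. The submitters' processing notes list the build mm10 and, without roles, HTSeq 0.9.1, STAR 2.5.3a, Bowtie2 2.3.2, DESeq2 1.18.1 and bcl2fastq 2.16.0.10. Strand and collapsing of identical reads are not given in the sources used here. Per the labels' protocols, RNA running between a 27 nt and a 30 nt marker was made into libraries. Summary rows were kept out of library sizes: alignments hitting several places were 62.3 to 73.0% of all listed, and 18.0 to 34.6% of unique ones fell outside features. Chi-square per degree of freedom between libraries of a group was 1.05 to 1.77. The RefSeq table held 0 Ensembl IDs, so the lists by symbol (carbonic anhydrases, acid-base transport, potassium channels, aldo-keto reductases, neighbours, cell type markers) and RPL12 could not be applied. The names Car2 and Kcnab2 came with their IDs.

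The main test was the quasi-likelihood F test of edgeR 4.0.16 (R 4.3.3) after TMM scaling and filterByExpr at a minimum count of 10, with 6 groups in 1 model, over 6692 genes, with a threshold of adjusted p under 0.05. Standard errors and 95% intervals come from the fitted information matrix and the moderated quasi-dispersion. Log2 CPM used a prior count of 2. Genes other than the chosen pair were named, by ID and at most 2, by likeness to it or by the size of the S38A difference, at a mean of at least 10 CPM. The test was checked on simulated data. Members, lists and tests were chosen with earlier results of these data known.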

Additional observations from a re-analysis of the deposited data

How the results depend on the processing

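The averaged Car2 change kept its direction and its call under all 7 alternatives other than leaving out a library (0.97 over all 3 genotypes, adjusted p = 0.0126, edgeR; 0.98 and adjusted p = 0.00398 with DESeq2) and in 12 of 12 fits without 1 library (0.83 to 1.16). With the replicate number as a block it was 0.98. Deviations of same-numbered libraries correlated at -0.23 to 0.092 over 15 pairs of groups, which gave no sign of pairing. In some groups libraries differed little beyond counting error (chi-square per degree of freedom from 1.05), so this check could miss a pairing. The block changed no call for either gene. In WT cells the Car2 call was lost with DESeq2 (0.80, adjusted p = 0.181) and in 2 of 12 fits without 1 library, which gave 0.52 to 1.19. The causes were not tested. Differences that missed the threshold and changed sign were, for Kcnab2, S38D minus WT of the mitotic change (-0.0030 with library totals, -0.049 with no filter, -0.20 to 0.29 without 1 library) and its change in WT cells (-0.43 to 0.066). For Car2 they were the mitotic change of S38D minus WT (-0.058 to 0.61) and of S38A minus WT (-0.25 to 0.51), all without 1 library.

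Leaving out 1 library moved the S38D minus S38A log2 difference of Car2 in asynchronous cells over 4.16 to 4.797. For Kcnab2 it moved S38D minus S38A over 4.31 to 7.22 in mitotic and 3.14 to 4.35 in asynchronous cells, and S38A minus WT over -7.27 to -4.38 and -4.40 to -3.24. The values 7.22 and -7.27 came without S38A mitotic replicate 1, which holds the 1 read of that group, and are no bound. DESeq2 gave 5.46 for S38D minus S38A in mitotic cells. It gave no adjusted p for Kcnab2 in any single genotype or for S38A minus WT of the mitotic change of either gene, and a fit of S38A alone dropped both genes by its filter.

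Counts of genes called fell with DESeq2 to 1251 from 2194 for the averaged change, 724 from 1435 in S38D, 542 from 1246 in S38A and 587 from 1231 in WT cells. Without 1 library they were 782 to 1465 in S38D, 702 to 1340 in S38A and 647 to 1325 in WT cells. For the change in S38D minus WT, 4 genes were called, 7 with no filter, 2 with DESeq2 and 1 to 14 without 1 library. For S38A minus WT, 30 were called, and 20 to 51 without 1 library. With library totals, 93 genes in place of 88 had all S38A libraries below the others, and 83 were shared. With Spearman's rho, 0 of the 5 most alike genes were shared for either gene. At 1 to 4 reads of Car2 and 0 to 2 of Kcnab2 per S38A library, depth does not allow a change within S38A cells to be read.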
